A study of Mus musculus with 12 samples.

Results

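Mouse liver taken early in the night, when nocturnal mice usually feed, was set against liver taken early in the day, when they usually rest. The early night side was the 4 arrays collected 2 h (ZT38 and ZT62) and 6 h (ZT18 and ZT42) after lights-off. The early day side was the 4 arrays collected 2 h (ZT26 and ZT50) and 6 h (ZT30 and ZT54) after lights-on. These 8 arrays were chosen by their titles alone from the 12 of the series, and the other 4 (late day, ZT34 and ZT58; late night, ZT22 and ZT46) enter only where named. Adult mice were kept on alternating 12-h light and 12-h dark periods, with food and water always present. The labels give no strain, sex or genotype, and feeding was not recorded, so "night" and "day" below are times of collection. Livers were collected every 4 h, and at each time RNA from 2 livers, mixed in equal parts, was hybridised to 1 one-colour miRNA array. Zeitgeber time (ZT) counts the hours from a lights-on.

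MicroRNAs (miRNAs) are short RNAs that guide Argonaute proteins to messenger RNAs, chiefly through pairing of bases 2 to 8, the seed, and so lower their translation and stability. miRNAs that share a seed form a family with overlapping targets, and neighbouring miRNA genes are often cut from a single long transcript. In the liver, miR-122 dominates the miRNA pool of hepatocytes and takes part in lipid metabolism, miR-103 and miR-107 dampen insulin signalling, and miR-33 and miR-378 lie inside genes of sterol and energy metabolism. Feeding, fasting and the clock all reshape hepatic messenger RNA over the day, and the comparison asks whether the mature miRNAs of the pools did so between these 2 windows.

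The mature sequences that the results turn on are printed here, with the seed in capitals and the rest in lower case. They are RefSeq's (GRCm38.p6); a RefSeq sequence was matched by name and arm for 77 of the 128 mouse entries tested, and miR-720 is named only. let-7e had the largest difference among the entries never at the intensity floor described below. let-7e and let-7a, an abundant family member, share the seed and differ by U9G, counted from the 5′ end with let-7a's base first:
let-7e: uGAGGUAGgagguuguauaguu
let-7a: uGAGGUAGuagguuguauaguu
The 3 members of the miR-148 family follow, of which miR-148a had separate night and day values and the others did not:
miR-148a: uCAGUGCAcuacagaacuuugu
miR-148b: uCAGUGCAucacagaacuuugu
miR-152: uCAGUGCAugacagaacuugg
miR-92a and its seed partner miR-25, and miR-365, whose seed was found in no other of the 77 tested entries with a sequence, were:
miR-92a: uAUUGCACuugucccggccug
miR-25: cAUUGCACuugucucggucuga
miR-365: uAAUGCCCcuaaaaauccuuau
miR-195 and miR-497, which are neighbours in the genome and were both higher by mean at night, share the seed of miR-16:
miR-195: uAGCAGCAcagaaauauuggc
miR-497: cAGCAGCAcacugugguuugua
miR-16: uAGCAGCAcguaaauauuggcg

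In RefSeq, let-7e lies at chr17:17830366-17830387 on the plus strand, inside the span of Spaca6. Mature miR-148a lies at chr6:51269829-51269850 on the minus strand. miR-92a has a copy at chr14:115044476-115044496 (plus strand) and another at chrX:52741854-52741874 (minus strand), and miR-365 has copies at chr11:79726467-79726488 and chr16:13453895-13453916 (both plus strand). An array probe cannot tell such copies apart.

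The arrays held 611 mouse entries, of which 417 were detected on none of the 8 arrays. In all, 135 were detected on at least 6 of the 12 arrays. Of these, 7 lay at the floor (22.2 intensity units) on all 8 arrays and were left out. That left 128 tested entries, 108 of them never at the floor. The floor is the median over arrays of the lowest probe reading above background, so a value over it need not be above background. Detection of an entry was the scanner software's own call, and its probe need not be above background by the spot flags. miR-30c-2* was called on 7 of the 8 arrays, its probe above background on 0 of 4 night and 0 of 4 day arrays. The night arrays detected 145 ± 12.9 mouse entries and the day arrays 138 ± 6.32 (SD, n = 4 each; two-sided exact permutation p = 0.371, the smallest possible being 0.0286). Profiles of 2 arrays from the same side correlated with a median r of 0.996 over 12 pairs, and those from opposite sides with a median of 0.996 over 16 pairs, across entries, which are not independent. Slide 1 carried ZT18, ZT38, ZT42, ZT26 and ZT30, and slide 2, in a second scan, carried ZT62, ZT50 and ZT54. Of the herpesvirus entries, 3, for which uninfected liver has no template, were read above the floor on 8 of 8 arrays (mean intensities 150.1, 86.5 and 28.6), so an entry this dim need not reflect the miRNA it is named for. Replicates here were pools of 2 livers taken 4 h or more apart, at 2 clock times in each side. Each p-value therefore reflects how such pools, those clock times, and the labelling and hybridisation varied.

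With the arrays brought to a common level, liver miRNA levels were close to equal in the early night and the early day. Such scaling takes out a shift shared by all entries, so the total level was not measured. In limma's moderated test, 0 of 128 entries (0%) passed an adjusted p of 0.05, the smallest adjusted p being 0.475 for miR-720, and 5 (3.91%) had an unadjusted p under 0.05. With this scaling, of the 108 entries never at the floor, 96 had night and day means within 1.1-fold of each other and 108 within 1.2-fold. The furthest was let-7e, at 1.18-fold. The median SD between arrays of a side was 0.09 log2 units.

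The 95% intervals give, entry by entry, how large a difference could have been missed. Each holds for its entry alone and not for all entries at once. It concerns the mean over 2 h and 6 h, so opposite differences at those hours would cancel in it. For each entry the limit is the bound of its 95% interval farther from equality, written as a fold above 1. The limit was under 1.2-fold for 70 of the 108 entries, under 1.5-fold for 105 and under 2-fold for 108, with a median of 1.16-fold. Among the 61 entries with a mean intensity above 100 it was under 1.2-fold for 52, under 1.5-fold for 60 and under 2-fold for 61, with a median of 1.10-fold. The number of arrays limits this precision, and the limits leave out the uncertainty of the scaling between arrays.

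**Figure D1:**
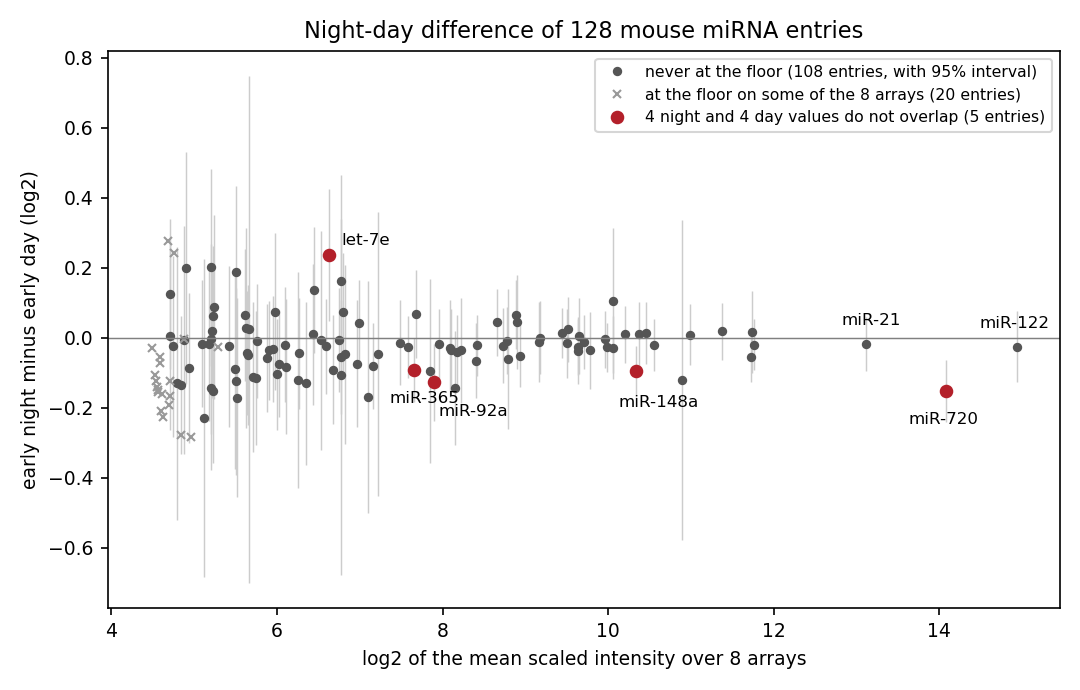
Each point is 1 of the 128 tested mouse entries; the x axis is log2 of its mean scaled intensity over the 8 arrays and the y axis is the mean of 4 early night arrays minus the mean of 4 early day arrays on the log2 scale, with 95% intervals from limma for the 108 entries never at the floor. Differences narrow toward bright entries, and the 5 entries whose night and day values do not overlap (red) include 1 above 0 (let-7e) and 4 below it.

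Both the direction and the size of the differences depended on how arrays were scaled to each other. With the scaling used, 35 of 128 entries (27.3%) had a higher and 93 (72.7%) a lower mean at night, and the median difference was -0.03 log2 units. With all-probe scaling the split was 113 higher and 10 lower with a median of 0.29, without scaling 87 and 41 with a median of 0.05, with quantile normalization 62 and 63 with a median of 0, and with normexp background correction 26 and 102 with a median of -0.06. The scaling factors themselves were 0.970 ± 0.0874 at night and 1.02 ± 0.0308 by day (SD, n = 4 each; two-sided exact permutation p = 0.343). Counts of higher and lower means below hold for the scaling used unless another is named, and are set beside the 35 and 93 of all entries.

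In 5 entries the 4 night values did not overlap the 4 day values (3.91% of those tested), 1 higher (0.781%) and 4 lower (3.12%) at night. They were the same 5 that had an unadjusted p under 0.05, and 0 passed after adjustment. The separation held for this scaling: with normexp 4 of the 5 had separate sides (all but let-7e), and with quantile normalization, no scaling or all-probe scaling 0 of 5 did. Relative to the median entry, each of the 5 kept its direction under all 5 scalings, with let-7e above it by 0.15 to 0.29 log2 units. Without taking off the median, the 4 lower entries read higher at night with all-probe scaling, which moved nearly all entries up.

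let-7e belongs to the let-7 family, which holds back growth genes. Its scaled intensity at night was 98.5 at ZT18, 95.4 at ZT38, 117 at ZT42 and 117 at ZT62, and by day it was 83.1 at ZT26, 93.0 at ZT30, 94.4 at ZT50 and 91.8 at ZT54. The day arrays were low, and the nearest pair, ZT38 and ZT50, stood 0.907 intensity units apart. On the log2 scale the means were 6.73 ± 0.16 at night and 6.50 ± 0.08 by day (SD, n = 4 each). The night over day fold was 1.18 (95% interval 1.03 to 1.34; limma unadjusted p 0.0196, adjusted p = 0.834). The 4 lowest of all 12 arrays were the 4 early day arrays, since the late arrays lay between 99.7 and 112. The mean intensity of let-7e, 98.8, was below that of the brightest herpesvirus entry.

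miR-720 is catalogued as a miRNA but derives from a transfer RNA. It measured 16427 at ZT18, 15791 at ZT38, 17094 at ZT42 and 16114 at ZT62, against 19347 at ZT26, 17966 at ZT30, 17518 at ZT50 and 17844 at ZT54. Every night array lay below every day array, and ZT26 was the highest of the 8. The log2 means were 13.997 ± 0.05 and 14.15 ± 0.06 (SD, n = 4 each), and night over day was 0.901-fold (95% interval 0.847 to 0.958; limma unadjusted p 0.00371, adjusted p = 0.475).

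miR-148a, abundant in hepatocytes and a repressor of the low-density lipoprotein receptor, measured 1276 at ZT18, 1201 at ZT38, 1254 at ZT42 and 1252 at ZT62. By day it measured 1378 at ZT26, 1287 at ZT30, 1318 at ZT50 and 1342 at ZT54. The sides were separate by 11.8 intensity units, and the 4 lowest of all 12 arrays were the 4 early night arrays. Its fold was 0.936 (95% interval 0.890 to 0.984; limma unadjusted p 0.0148, adjusted p = 0.834). Its family members with the same seed overlapped between the sides: miR-148b had a fold of 0.988 (0.871 to 1.12) and miR-152, a mesenchymal miRNA, 1.05 (0.918 to 1.19).

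miR-92a, the last miRNA of the miR-17-92 cluster, which promotes growth, measured 241 at ZT18, 213 at ZT38, 239 at ZT42 and 221 at ZT62. The day values were 252 at ZT26, 251 at ZT30, 242 at ZT50 and 253 at ZT54. ZT38 and ZT62, both 2 h after lights-off, were the lowest arrays, and the highest night array lay 1.02 intensity units below the lowest day array. The fold was 0.915 (95% interval 0.848 to 0.988; limma unadjusted p 0.0273, adjusted p = 0.875). Its seed partner miR-25 had a fold of 0.983 (0.895 to 1.08).

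miR-365, which is enriched in hepatocytes, measured 195 at ZT18, 186 at ZT38, 201 at ZT42 and 200 at ZT62 at night, and 206 at ZT26, 208 at ZT30, 211 at ZT50 and 208 at ZT54 by day. The day arrays were the tightest of the 5 entries, with an SD of 0.02 log2 units against 0.05 at night (n = 4 each). The fold was 0.938 (95% interval 0.880 to 1.00; limma unadjusted p 0.0489, adjusted p = 0.906).

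With the slide as a block the log2 differences of these 5 were 0.27 (let-7e), -0.17 (miR-720), -0.10 (miR-148a), -0.14 (miR-92a) and -0.08 (miR-365), and limma's unadjusted p for miR-365 was 0.0975. Within slide 1 (3 night and 2 day arrays) they were 0.23, -0.18, -0.10, -0.12 and -0.10. Within slide 2 (1 night and 2 day arrays, so with no spread at night) they were 0.33, -0.13, -0.09, -0.16 and -0.07. Values that do not overlap between the sides must keep their direction within each slide, so these slide values are no further evidence of it. The sign was the same in 26 of 26 other treatments of the data for each of the 5, those with all-probe scaling taken relative to the median entry. It was fixed in advance wherever the scaled values were unchanged, as on leaving out arrays. Over the 26 treatments limma's adjusted p ran from 0.325 to 1.

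**Figure D2:**
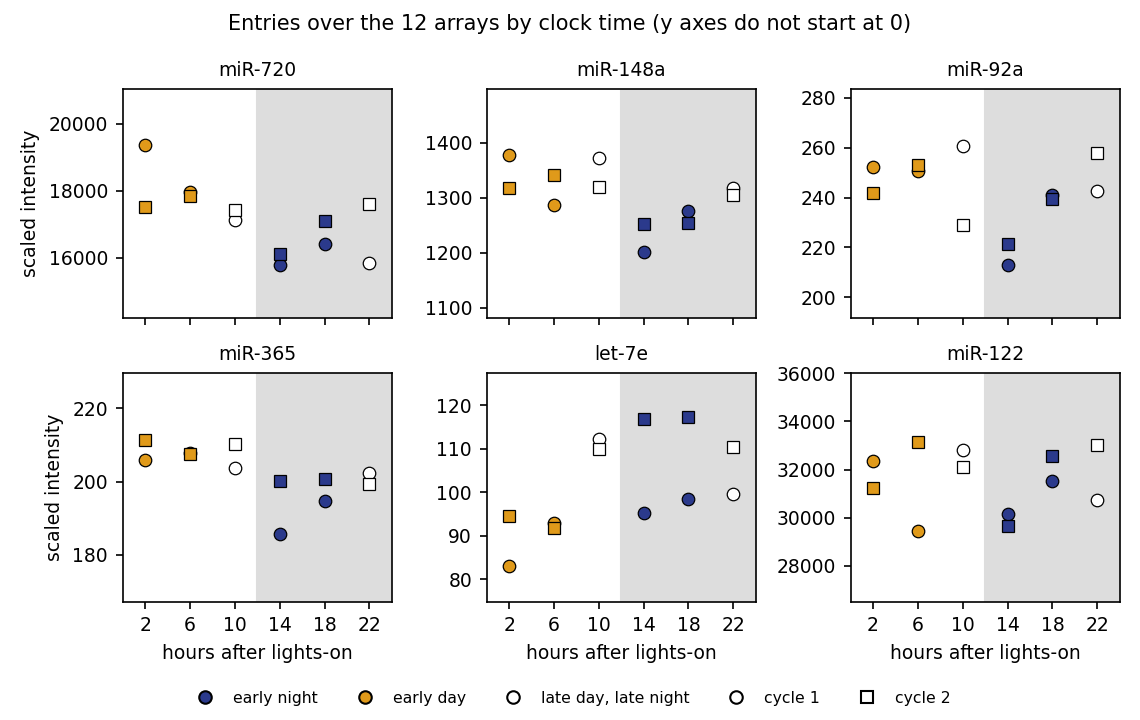
Scaled intensity (y axis, not starting at 0) of the 5 entries with separate night and day values, and of miR-122 for comparison, on all 12 arrays by hours after lights-on (x axis; grey marks the dark). Blue points are early night, orange points early day and white points the late arrays, with circles for cycle 1 and squares for cycle 2; let-7e runs from 83.1 to 94.4 on the early day arrays and from 95.4 to 117 on the early night arrays, while the colours of miR-122 mix.

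The other entries of smallest p in each direction overlapped between the sides. miR-195, which restrains the cell cycle, measured 120.3 at ZT18, 115 at ZT38, 119.8 at ZT42 and 106 at ZT62, against 98.0 at ZT26, 99.8 at ZT30, 96.2 at ZT50 and 119 at ZT54. Its partner miR-497, whose hairpin lies 242 bases away on chromosome 11, measured 100.4, 91.1, 92.3 and 80.6 on the night arrays in the same order, and 78.8, 83.9, 78.1 and 90.3 on the day arrays. In both, the day array ZT54 was high and the night array ZT62 was low for its side. The folds were 1.12 (0.990 to 1.26; limma unadjusted p 0.0676, adjusted p = 0.906) and 1.10 (0.971 to 1.25; limma unadjusted p 0.120, adjusted p = 0.906). Both arrays that went against the rest stood on slide 2, where the log2 differences were -0.02 and -0.06, against 0.26 and 0.22 on slide 1; the part of the slide in this was not tested.

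The means of 5 more of these entries were higher at night. miR-23a, of a cluster that shapes vascular and metabolic genes, had a fold of 1.05 (0.979 to 1.12). miR-361, miR-500, miR-30e* and miR-338-3p were dim, with folds of 1.15 (0.946 to 1.40), 1.15 (0.912 to 1.44), 1.14 (0.960 to 1.35) and 1.09 (0.941 to 1.26). The highest value of miR-361 (51.1) and of miR-30e* (56.1) each came from a single array, ZT62, against highest day values of 35.4 and 47.8. miR-500 and miR-338-3p turned to a lower mean at night with all-probe scaling, relative to the median entry, and with normexp.

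On the lower side, miR-142-3p of blood cells had a fold of 0.905 (0.808 to 1.01), and miR-192, a hepatocyte and epithelial miRNA, 0.963 (0.917 to 1.01). miR-712, which derives from a spacer of the ribosomal RNA precursor, had a fold of 0.901 (0.780 to 1.04), and the dim miR-1198 0.911 (0.795 to 1.04). Among these 9 entries the smallest limma p was 0.0794, for miR-142-3p, with an adjusted p of 0.906.

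**Figure D3:**
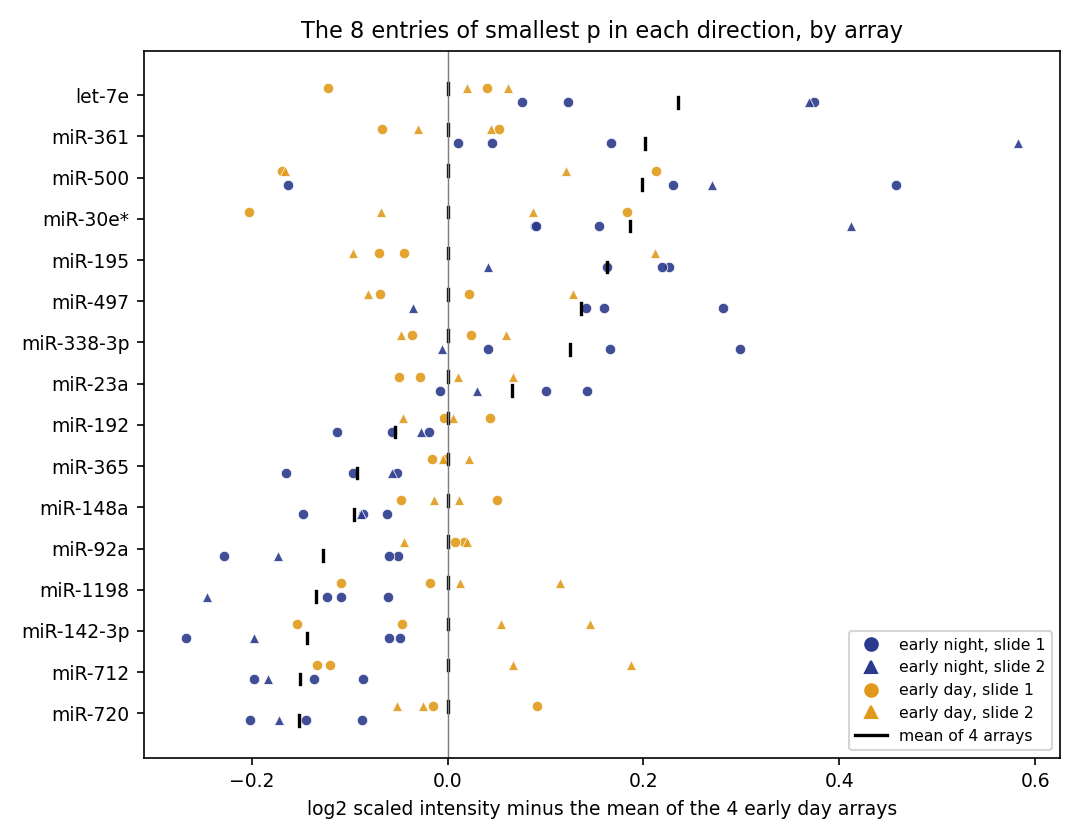
For the 8 entries of smallest p in each direction that were never at the floor, each point is 1 array's log2 scaled intensity minus the mean of the 4 early day arrays (x axis, log2 units), with blue for early night, orange for early day, circles for slide 1, triangles for slide 2 and black bars for the mean of 4 arrays. Blue and orange are separate for let-7e, miR-365, miR-148a, miR-92a and miR-720 and overlap for the other 11.

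miR-122, the most abundant miRNA of hepatocytes, overlapped between the sides. It measured 31520 at ZT18, 30158 at ZT38, 32561 at ZT42 and 29656 at ZT62, against 32335 at ZT26, 29458 at ZT30, 31228 at ZT50 and 33127 at ZT54. Each side held both high and low arrays, and the fold was 0.982 (95% interval 0.915 to 1.05; limma adjusted p = 0.906). Of 12 hepatocyte miRNAs listed, 11 were on the array, all 11 were detected and tested, and 11 had a lower mean at night, with a median of -0.03 log2 units, against -0.03 over all entries. Of these 11, 2 (miR-148a and miR-365, given above) had separate sides and an unadjusted p under 0.05, against 3.91% of all entries. Without scaling 4 of the 11 were lower, with quantile normalization 7, with all-probe scaling 1 and with normexp 11. miR-22, which acts in lipid and one-carbon metabolism, had a fold of 0.987 (0.938 to 1.04), and miR-194, made with miR-192, 0.981 (0.922 to 1.04). miR-802, which is raised in obese liver, was at the floor on 2 of the 8 arrays, and its fitted fold of 0.891 (0.691 to 1.15) rests partly on them. As a check of the labelled tissue, miR-122 was well above background on 4 of 4 night and 4 of 4 day arrays. The 4 listed striated muscle and the 3 listed pancreatic miRNAs were detected on none of the 8. Of 8 listed neuronal miRNAs 2 were detected on some arrays, miR-338-3p on 7 of the 8 and miR-219 on 5. miR-219 lay at the floor on all 8.

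Of 20 miRNAs listed for lipid and sterol metabolism, 12 could be tested, of which 1 had a higher and 11 a lower mean at night, with a median of -0.04 (4 lower without scaling, 8 with quantile normalization, 0 with all-probe scaling and 11 with normexp). Besides miR-148a, 0 of them had an unadjusted p under 0.05. miR-21, induced in injured and fatty liver, had a fold of 0.988 (0.937 to 1.04) at a mean intensity of 8894, and miR-34a, which represses Sirt1, 0.914 (0.777 to 1.07). miR-33, which restrains cholesterol export from inside the Srebf2 gene, was detected on 4 of the 8 arrays and was not tested. miR-27a was the member with the higher mean, at 1.05-fold (0.961 to 1.14), and miR-27b, from another cluster with the same seed, was at 0.972 (0.904 to 1.05).

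Among 16 listed miRNAs of glucose and insulin signalling, 15 were tested, 7 with a higher and 8 with a lower mean, and 14 with a higher mean without scaling. miR-103 and miR-107, which differ by G22C and lie inside the pantothenate kinase genes Pank3, Pank2 and Pank1, had folds of 0.990 (0.911 to 1.08) and 0.985 (0.928 to 1.05). For the miR-29 family, which limits collagen and insulin signalling genes, the folds were 1.01 (0.947 to 1.07), 1.01 (0.951 to 1.07) and 0.982 (0.929 to 1.04) for members a, b and c. miR-26a, which favours insulin sensitivity, had a fold of 0.997 (0.942 to 1.05). miR-378, inside the gene of the coactivator PGC-1β, measured 132, 112, 119.8 and 124 at ZT18, ZT38, ZT42 and ZT62 and 130.1, 113, 144 and 126 at ZT26, ZT30, ZT50 and ZT54, so the sides overlapped, with a fold of 0.950 (0.838 to 1.08).

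A list of 30 miRNAs reported to be rhythmic or to repress clock genes had 20 tested members, 3 with a higher and 17 with a lower mean at night and a median of -0.03, and 0 of them had an unadjusted p under 0.05. Without scaling 6 were lower, with quantile normalization 11, with all-probe scaling 1 and with normexp 16. Among them, miR-142-3p, which represses Bmal1, and miR-192 and miR-194, which have been reported to target Period genes, had the folds given above, and miR-24, also reported to act on Period genes, was at 1.03 (0.965 to 1.10).

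Families and clusters were read next, since their members share seeds or transcripts. In the let-7 family 9 of 9 members were tested, 5 with a higher and 4 with a lower mean at night (4 higher with normexp, 6 with quantile normalization and 9 when unscaled or scaled on all probes). Of the 8 besides let-7e, 7 had folds between 0.976 (let-7b and let-7i) and 1.01 (let-7a, let-7c and let-7f), and miR-98 was at 1.02 (0.837 to 1.24). let-7a, with the seed of let-7e, measured 2663 at ZT18, 2580 at ZT38, 2741 at ZT42 and 2677 at ZT62, against 2548, 2532, 2675 and 2775 at ZT26, ZT30, ZT50 and ZT54, and its sides overlapped. The neighbour of let-7e in the genome, miR-125a-5p, 368 bases away, had a fold of 1.06 (0.886 to 1.28).

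The list for the miR-17-92 and miR-106b-25 clusters also held miR-20b, which lies on chromosome X beside the copy of miR-92a there. Of the 13 miRNAs listed 8 were tested, miR-20b among them, and 8 had a lower mean at night, with a median of -0.05 (2 without scaling, 5 with quantile normalization, 0 with all-probe scaling and 8 with normexp). miR-92a was the only one of them with separate sides. miR-20a, miR-19b and miR-19a, from its cluster on chromosome 14, had folds of 0.946 (0.869 to 1.03), 0.965 (0.908 to 1.03) and 0.976 (0.885 to 1.08), and miR-106b was at 0.996 (0.899 to 1.10). Of the 6 tested members with the miR-15/16 seed, 4 had a higher mean (6 with quantile normalization, without scaling or with all-probe scaling, and 3 with normexp), and miR-16 and miR-15a were at 0.992 (0.940 to 1.05) and 1.02 (0.954 to 1.08), beside miR-195 and miR-497.

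In the miR-23/27/24 clusters 4 of 5 tested members had a higher mean at night, with a median of 0.04; 4 or 5 of 5 were higher, and 4 or 5 of 5 stood above the median entry, under each of the 4 other scalings. Those of the chromosome 8 cluster were miR-23a, miR-27a and miR-24, the last with copies in both clusters. miR-23b of the second cluster was at 1.00 (0.931 to 1.07). In the miR-30 family, which acts in lipid synthesis and fibrosis, 8 of 10 members on the array were tested, and 7 had a lower mean (3 without scaling, 6 with quantile normalization, 0 with all-probe scaling and 7 with normexp), among them miR-30a at 0.981 (0.935 to 1.03), miR-30c at 0.975 (0.912 to 1.04) and miR-30b at 0.994 (0.931 to 1.06). Another of the 7, miR-30c-2*, was above the floor only at ZT50 (34.1) among the 8 arrays, so its lower mean rests on that array. The probe of miR-30c-2* was above background on 0 of 4 night and 0 of 4 day arrays. miR-126-3p of endothelial cells was at 1.01 (0.943 to 1.07).

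**Figure D4:**
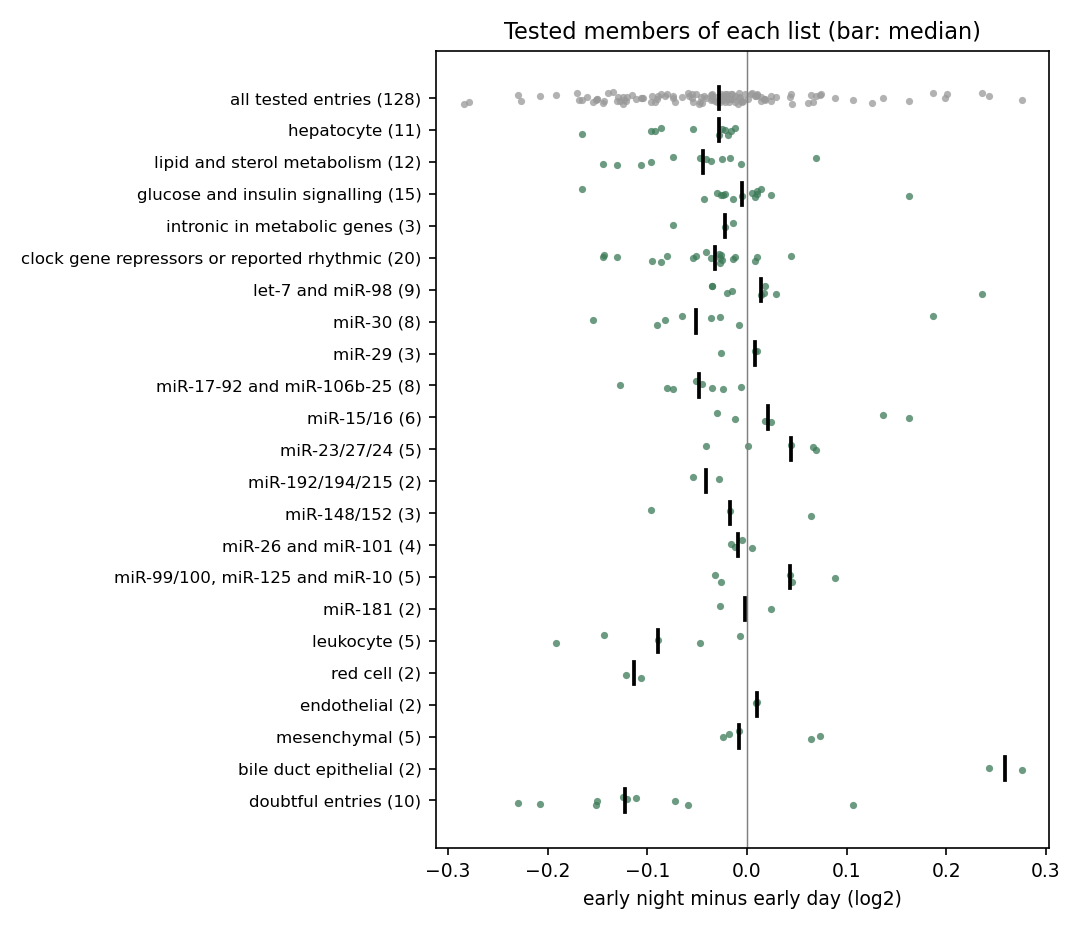
Night minus day difference (x axis, log2 units) of each tested member of the 22 lists with at least 2 tested members, below all 128 tested entries in grey, with the number of members in parentheses and a black bar at the median. Medians lie from -0.12 (doubtful entries) to 0.04 (miR-23/27/24) in the lists with members never at the floor, near the -0.03 of all entries, and the bile duct pair, at the floor on some arrays, lies at 0.26.

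Entries that are not true miRNAs or are of doubtful origin (pieces of transfer RNA or ribosomal RNA, or repeats) were read as a list beside the miRNAs, since miR-720 belongs to it. Of 10 tested, 9 had a lower mean at night and 1, miR-709, a higher one, with a median of -0.12. Of the 9, 3 rest on floored values: miR-715, miR-1897-5p and miR-705 were floored on 7, 5 and 4 of the 8 arrays. miR-715 was above the floor only at ZT50 (39.5). Its probe was above background on 0 of 4 night and 0 of 4 day arrays. Under the 4 other scalings 8 or 9 of the 10 stood below the median entry. Their summed intensity ran from 17458 to 18885 on the night arrays and from 19493 to 21129 on the day arrays, a sum made up mostly of miR-720. Whether RNA quality or recovery of such fragments had a part in this was not tested.

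Markers of other cells gave no separate sides. In bulk liver fewer cells of a type and less RNA per cell cannot be told apart. Of 8 leukocyte miRNAs, 5 were detected and tested, 5 had a lower mean at night (3 without scaling, 4 with quantile normalization, 1 with all-probe scaling and 5 with normexp), and their summed intensity was 498 to 588 at night and 497 to 621 by day. miR-223 of neutrophils was at 0.968 (0.811 to 1.16) and miR-146a at 0.995 (0.802 to 1.24). Both tested red cell miRNAs had a lower mean, with wide intervals: miR-451 was at 0.919 (0.670 to 1.26) and miR-144 at 0.929 (0.626 to 1.38). Of the 5 bile duct epithelial miRNAs, miR-200a and miR-200b were tested, and both had a higher mean at night. miR-200a read 29.3, 26.01, 35.5 and 22.2 at ZT18, ZT38, ZT42 and ZT62 and 22.3, 23.2, 24.4 and 22.2 at ZT26, ZT30, ZT50 and ZT54, where 22.2 is the floor. ZT18 and ZT42 were high, and the probe was above background on 3 of 4 night and 2 of 4 day arrays, so its fitted fold of 1.21 (limma unadjusted p 0.0763, adjusted p = 0.906) has no firm base on the day side.

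The night-day difference was then taken separately at 2 h and at 6 h after the light change, with 2 arrays in each cell. At 2 h (ZT38 and ZT62 against ZT26 and ZT50) 0 of 128 entries passed in limma, the smallest adjusted p being 0.331, and 8 (6.25%) had an unadjusted p under 0.05, 8 lower and 0 higher. The median difference over all entries was -0.08 log2 units at this hour, and the split turned with the scaling: 5 higher and 3 lower without scaling, 5 and 0 with quantile normalization, 0 and 14 with normexp and 0 and 0 with all-probe scaling. Among these were miR-720 at 0.866-fold, miR-92a at 0.879 and miR-148a at 0.910, already given, with miR-1224 at 0.832 and miR-494, of the imprinted Dlk1-Dio3 cluster, at 0.783. miR-494 measured 198 at ZT38 and 187 at ZT62, against 249.5 at ZT26 and 242 at ZT50.

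At 6 h (ZT18 and ZT42 against ZT30 and ZT54) 0 entries passed, the smallest adjusted p in limma being 0.838, and the median difference was 0.03. At an unadjusted p under 0.05 there were 2 (1.56%), both higher: miR-709, at 1.25-fold, and miR-200a, at 1.42-fold with floored values. miR-709 measured 1289 at ZT18 and 1072 at ZT42 against 891 at ZT30 and 996 at ZT54, so ZT18 stood highest.

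The difference between the hours was itself tested. Again 0 of 128 passed, with a smallest adjusted p of 0.348 in limma, and 8 (6.25%) had an unadjusted p under 0.05, 8 with the larger night-day value at 6 h (5 of 6 without scaling, 7 of 7 with normexp, 0 of 4 with quantile normalization and 0 with all-probe scaling). miR-494 stood at 0.783-fold at 2 h and 1.12-fold at 6 h (limma unadjusted p of the difference 0.00816), miR-1224 at 0.832 and 1.11 (0.00635), and miR-98 of the let-7 family at 0.853 and 1.22 (0.0375). The lone arrays mattered here. Without ZT26, whose cell then held ZT50 alone, 8 entries passed at 2 h and 7 passed in the difference between the hours; without any other single array 0 passed in either. Only at ZT50 were 5 dim entries over the floor: miR-197, miR-715, miR-30c-2*, miR-487b and miR-878-3p read 41.6, 39.5, 34.1, 33.6 and 32.6 there. They read 22.2, the floor, on the other 7 of the 8. Their probes were above background on 0 of 4 night and 0 of 4 day arrays, so the ZT50 values need not be signal. These 5 were among the entries that passed without ZT26 in both tests, and ZT50 was the highest of the 8 arrays for each entry that passed. Over all 128 tested entries ZT50 was the highest of the 8 arrays for 37.

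Finally, cycle 1 (night ZT18 and ZT38, day ZT26 and ZT30) was compared with cycle 2 (night ZT42 and ZT62, day ZT50 and ZT54). The difference between the cycles in the night-day contrast passed for 0 of 128 entries, the smallest adjusted p being 0.318 in limma, while 15 (11.7%) had an unadjusted p under 0.05, 3 of them higher (2.34%) and 12 lower (9.38%) in cycle 2. The split was 6 and 8 with quantile normalization, 1 and 8 with normexp, 0 and 7 without scaling and 36 and 0 with all-probe scaling. Cycle 1 lay wholly on slide 1, and all of cycle 2 but ZT42 lay on slide 2, so cycle and slide cannot be told apart.

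Of the leukocyte and red cell lists, miR-142-3p, miR-142-5p and miR-451 were among these. miR-342-3p of the leukocyte list (limma unadjusted p of the difference 0.103) and miR-144 of the red cell list were not. miR-142-3p measured 289 at ZT18 and 286 at ZT38 against 268 at ZT26 and 289 at ZT30, a fold of 1.03 in cycle 1. In cycle 2 it measured 248 at ZT42 and 260.4 at ZT62 against 330.2 at ZT50 and 310.1 at ZT54, a fold of 0.794 (limma unadjusted p of the difference 0.00249, adjusted p = 0.318). The day arrays of cycle 2 were the 2 highest of the 8 and its night arrays the 2 lowest. miR-142-5p, the other arm of its hairpin, had folds of 1.12 and 0.688 but lay at the floor on 3 arrays.

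The red cell pair moved by more between arrays than between the sides. miR-451, made in maturing red cells, measured 2356 at ZT18, 1833 at ZT38, 1341 at ZT42 and 1752 at ZT62, and 2096 at ZT26, 1363 at ZT30, 2614 at ZT50 and 1901 at ZT54. Its cycle folds were 1.23 and 0.688 (limma unadjusted p of the difference 0.0448). miR-144, whose hairpin lies 100 bases from that of miR-451, ran from 68.7 at ZT30 to 174 at ZT50, the same arrays that were next to lowest and highest for miR-451, with cycle folds of 1.31 and 0.659 (0.0590). How much blood each pool held was not recorded, and its part in these values was not tested.

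Within the hepatocyte list, miR-193 went from 0.921-fold in cycle 1 to 1.05-fold in cycle 2 (limma unadjusted p of the difference 0.0178), and miR-194 from 0.931 to 1.03 (0.0252). miR-802, with floored values, had folds of 0.992 and 0.801 (0.408). Outside that list, miR-15b and miR-26b went from 1.07 to 0.893 (0.0212) and from 1.07 to 0.936 (0.0223). miR-1904 had folds of 1.29 and 0.730 (0.0101). For miR-720, miR-148a, miR-92a and miR-365 the fold was below 1 in both cycles (0.864 and 0.939, 0.929 and 0.942, 0.901 and 0.930, 0.919 and 0.957). For let-7e it was above 1 in both (1.10 and 1.26). Values that do not overlap between the sides fix these directions in advance, so the cycles are no second test of them. Without ZT54, whose cell then held ZT50 alone, some entries passed in the difference between the cycles, among them the 5 above the floor at ZT50 alone. ZT50 was the highest of the 8 arrays for each entry that passed, as it was for 37 of the 128 tested entries.

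**Figure D5:**
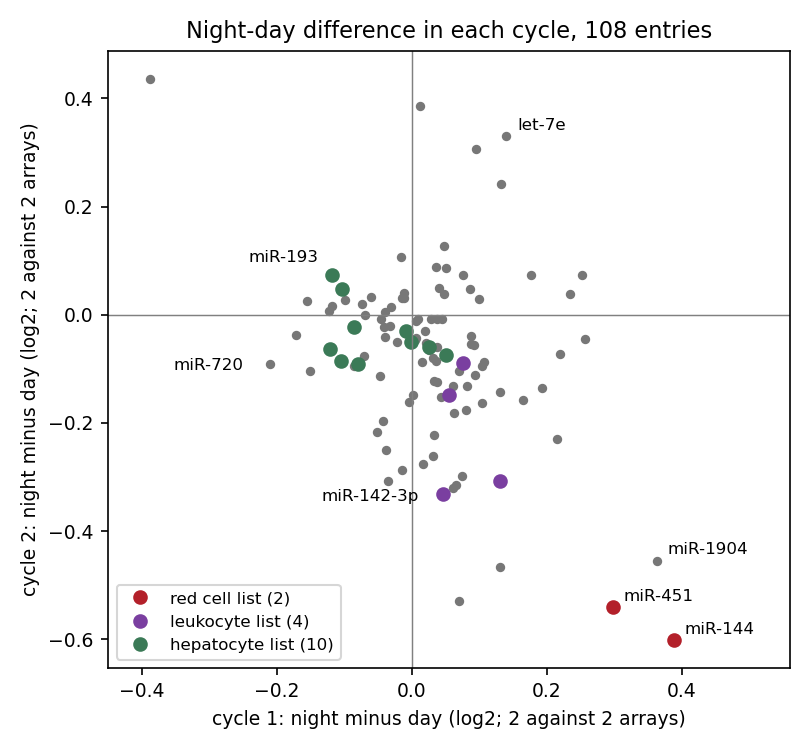
Night minus day difference in cycle 1 (x axis) against that in cycle 2 (y axis), both in log2 units from 2 night and 2 day arrays, for the 108 entries never at the floor; red, purple and green mark the red cell, leukocyte and hepatocyte lists. miR-451 and miR-144 lie at the lower right, higher at night in cycle 1 and lower in cycle 2. let-7e lies above 0 in both and miR-720 below 0 in both, which their separate night and day values fix in advance.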

How the data were processed

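Values were spot intensities on a linear scale (gProcessedSignal), background-subtracted and detrended by the authors with Agilent Feature Extraction 10.7.3.1, per the file headers, while 9.5.3.1 is the version in the submitters' processing notes. The deposited flags of each spot (well above background, outlier, saturated) and the software's detection call for each entry were used as other information. The deposited value table differed from these intensities by 0. The aligner and genome build are not given in the sources used here and the array needs none. RNA was extracted with TRIzol and checked on a Bioanalyzer, per the labels' protocols.

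Control spots and those marked as outliers (between 3.82% and 6.94% per array) were dropped, 0 spots were saturated, and the spots of a probe were averaged. Arrays were brought to a common 75th percentile, taken over 157 probes that were detected throughout the 12 arrays (more than 50% of spots well above background), with factors between 0.865 and 1.07 on the 8 arrays. Then a floor of 22.2 was set and log2 was taken. An entry was read from its brightest probe. It counted as detected where the scanner software called it so, apart from the 50% rule for probes. Entries detected on at least 6 of 12 arrays were tested with limma 3.58.1 in R 4.3.3, with an intensity trend and Benjamini-Hochberg adjustment over 128 entries, threshold 0.05, in a fit of the 8 arrays. Single values per array had an exact permutation test. The test was checked on simulated data. Alternatives changed the scaling, background correction, filter, floor, probe summary, variance model, slide, arrays in the fit, pairing by hour and cycle, and each array in turn. Normexp was planned on the mean spot signal; the median spot signal was used, with its offset of 50, because the files analysed here give that one. Spot values shared exactly by any pair of arrays were at most 0.00729% of spots, so no array was counted as deposited 2 times. Named entries are the 8 of smallest p in each direction never at the floor, those with separate sides, the 3 brightest and the smallest p of each list, 11 liver miRNAs, and the 3 of smallest p in each further test; others were chosen after their values were seen. The members and lists were chosen with earlier results of these data known.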

Additional observations from a re-analysis of the deposited data

Results flagged for a closer look

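In 134 sets of 4 arrays of a side, 4 held an array whose gap to the nearest other one exceeded Dixon's 95% critical value as a share of the whole range, a size that chance gives in about 1 in 20 sets. miR-34a was low at ZT26 in the early day (73.7 against 88.8 to 89.9 on the other day arrays; gap 0.936 of the range). miR-152 was high at ZT42 in the early night (54.3 against 48.2 to 48.9; 0.879). miR-30a was low at ZT38 in the early night (969 against 1015 to 1022; 0.857). miR-195 was high at ZT54 in the early day (119 against 96.2 to 99.8; 0.831). Each of these 4 differed in array, and 1 of them stood on slide 2.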

How the results depend on the processing

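The count of entries past an adjusted p of 0.05 between early night and early day was 0 under 18 of 18 other settings and on leaving out each of the 8 arrays in turn (0 to 0), with smallest adjusted p-values in limma from 0.325 to 0.939. At 6 h it was 0 under 14 of 14 and on leaving out each array (0 to 0). The other counts moved from 0 in places. At 2 h it was 1 without scaling and 1 with the mean over probes, miR-468 each time, an entry outside the naming rule and at the floor on 2 arrays, and 0 to 8 on leaving out an array (8 without ZT26). Between 2 h and 6 h it was 3 without scaling (miR-181b, miR-181d and miR-468) and 1 with the mean over probes (miR-468), and 0 to 7 on leaving out an array (7 without ZT26). Between cycles it was 1 with all-probe scaling (miR-574-5p) and 2 with quantile normalization (let-7f and miR-720), and 0 to 9 on leaving out an array (9 without ZT54). The cell that loses ZT26 or ZT54 then holds ZT50 alone, assumed to vary like the rest. The cause of the other moves was not tested. The night minus day difference of the scaling factor was -0.0490, and 0.0900 when the factor came from all probes; the exact permutation p of both values per array stayed above 0.05 under every alternative (0.0571 at the lowest).

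Over the 25 entries followed through the alternatives, 614 of 648 values kept their direction and side of the threshold, 3 were 0 (let-7a, miR-122 and miR-21 with quantile normalization) and 31 changed sign, 5 of these on leaving out an array. In log2 units, relative to the median with all-probe scaling, miR-500 was at -0.043, miR-338-3p at -0.17, miR-192 at 0.0028, miR-122 at 0.031, miR-22 at 0.037, miR-21 at 0.039, miR-107 at 0.035 and miR-103 at 0.043. Without scaling miR-192 was at 0.021, miR-122 at 0.049, miR-22 at 0.055, miR-21 at 0.057, miR-107 at 0.053, miR-103 at 0.061 and miR-378 at 0.0011. With quantile normalization miR-1198 was at 0.0029, miR-22 at 0.025, miR-107 at 0.038 and miR-103 at 0.060. With normexp miR-500 was at -0.0086 and miR-338-3p at -0.033. With the software's gene signal miR-712 was at 0.071 and miR-802 at 0.011. On slide 1 alone miR-122 was at 0.025, miR-22 at 0.0079 and miR-107 at 0.019. On leaving out 1 array miR-103 ran from -0.049 to 0.015 and was above 0 without ZT18, ZT38 or ZT54, let-7a ran from -2.6e-05 (without ZT30) to 0.044, and miR-21 from -0.036 to 0.0045 (without ZT38). The labels carry no replicate numbers. Pairing night and day arrays of the same hour and cycle as a block, chosen after seeing the data, gave a count of 0, a smallest adjusted p in limma of 0.882, and 5 with an unadjusted p under 0.05 (2 higher, 3 lower). Dim entries limit the precision: 20 of the 128 lay at the floor on some of the 8 arrays, and 6 on 6 or 7.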

Other observations

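Some entries stood apart on an array that belongs to neither side, late night ZT22; they were picked after their values were seen. miR-802, whose level depends on metabolic state, read 89.5 there against 22.2 (the floor) to 33.9 on the other 11 arrays. The epithelial miR-200a read 49.4 against at most 35.5, the stromal miR-143 62.7 against at most 49.4, and miR-199a-3p of hepatic stellate cells 149 against at most 129.

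miR-181b and miR-181d, which share a seed and act in immune cells, varied together and more than most entries, without following the sides. On the 8 arrays miR-181b was highest at ZT26 (85.3) and ZT42 (81.2) and read between 33.6 and 47.7 on the other 6; miR-181d was highest on the same arrays (73.4 and 64.8) and read between the floor and 41.9 on the rest. ZT26 is a day array and ZT42 a night array. Of the late arrays, ZT46 and ZT58 were also high for miR-181b (103 and 90.5). The pattern was not particular to this family. The dim entry miR-468 was likewise highest of the 8 arrays at ZT26 (53.9) and ZT42 (40.1), and read 49.3 at ZT46 and 57.9 at ZT58. The dim miR-718 was high on the same arrays. These entries lay at the floor on 2 (miR-468) and 4 (miR-718) of the 8 arrays. What these arrays had in common was not tested. The fold of miR-181b was 0.653 at 2 h after the light change and 1.58 at 6 h, with a limma unadjusted p of 0.0428 for the difference.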
